A study of Mus musculus with 6 samples.

Results

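The genes described here are *Grin1*, *Grin2a*, *Grin2b*, *Grin2d* and *Grin3a*, which encode subunits of the NMDA receptor. They were chosen by name, as 5 of the 31053 genes listed for each library, with earlier results of these data known. The other subunit genes of the family, *Grin2c* and *Grin3b*, had a value of 0 in every library and were not among the 5. The 6 libraries were bulk RNA-seq of cultured cortical neurons, dissociated from wild-type C57BL/6J mouse embryos at embryonic day 18. All cultures received floxuridine at day in vitro (DIV) 3 against dividing cells and were infected with an adeno-associated virus, at DIV 6 by the study's methods. They were given doxycycline at 1 µg per ml for 48 h and were collected at DIV 14. In 3 libraries the virus carried RPL10A-STAMP (rAPOBEC1 fused to mouse Rpl10a) and in the other 3 it carried RPL22-STAMP (rAPOBEC1 fused to mouse Rpl22). A synapsin promoter drives the doxycycline-dependent transactivator and so directs induction to neurons. Both fusions place a cytidine deaminase on the large ribosomal subunit, so that C-to-U changes mark RNAs met by tagged ribosomes. The comparison asks how this signal differs between the fusions. Rpl10a was joined to the C terminus of the deaminase and Rpl22 to its N terminus. The ribosomal protein and the orientation of the fusion therefore cannot be told apart. Both groups expressed a fusion and received doxycycline, and uninfected neurons were not analysed here.

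NMDA receptors are glutamate-gated cation channels that need a co-agonist, glycine or D-serine, and that pass calcium once depolarization relieves a magnesium block. An obligatory GluN1 subunit, encoded by *Grin1*, assembles with GluN2 subunits, which bind glutamate and set the channel's kinetics, or with GluN3 subunits, which bind glycine and lower calcium permeability. In the cortex GluN2B predominates before birth, GluN2A rises after birth, GluN2D is found mainly in interneurons and early in development, and GluN3A peaks in early postnatal life.

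The gene models lie on 5 chromosomes, each on the minus strand of GRCm38. *Grin1* (ENSMUSG00000026959) spans chr2:25291181-25319187. *Grin2a* (ENSMUSG00000059003) spans chr16:9567898-9995560. *Grin2b* (ENSMUSG00000030209) spans chr6:135713233-136173511. *Grin2d* (ENSMUSG00000002771) spans chr7:45831883-45878378. *Grin3a* (ENSMUSG00000039579) spans chr4:49661611-49845744. To show the substrate of the deaminase, 81 bases (27 codons) of the coding sequence of *Grin1*, the subunit that every receptor shares, are given 5′ to 3′ in the sense of the mRNA, with every cytidine, the base that rAPOBEC1 converts, in capitals. They lie in a single coding exon at chr2:25297172-25297252, around the third membrane segment, a conserved part of the channel.
Grin1: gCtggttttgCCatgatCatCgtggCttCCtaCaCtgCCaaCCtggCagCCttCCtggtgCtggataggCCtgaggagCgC
This stretch holds 24 cytidines and has a GC content of 59.3%. The deposited values do not say where in a gene an edit lay, so no editing level belongs to it.

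The transcripts of the 5 genes differed widely in composition. In the transcript with the longest coding sequence, *Grin2d* had a GC content of 65.0% and *Grin1* 59.4%, above 99.8% and 96.1% of the 8039 genes with editing in every library and a gene model. *Grin3a* had 49.2%, *Grin2b* 45.7% and *Grin2a* 44.8%, against a median of 48.9% over those genes. The 3′ UTR was 18865 bases long in *Grin2b*, 9929 in *Grin2a*, 3615 in *Grin3a*, 1187 in *Grin1* and 897 in *Grin2d*, with a median of 1295 over the same genes. Exons of antisense genes overlap 13.5% of the exonic bases of *Grin1* (*Grin1os*) and 9.66% of those of *Grin2d* (*Gm45441*). The library kit keeps strand, but the strand setting used in counting is not given in the sources used here, so reads of these pairs may have been mixed.

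The readout is EPR, the number of C-to-U edits in a gene divided by the number of reads counted for it. Edits and reads come from the same gene, so transcript length enters both sides of the ratio. EPR can still vary with base composition, since cytidines made up 36.4% of the transcript in *Grin2d*, 31.2% in *Grin1*, 25.2% in *Grin3a*, 22.8% in *Grin2b* and 21.8% in *Grin2a*. No edit or read counts were among the values, so depth per gene is unknown, and an EPR of 0 can mean no edits or no reads. The libraries are of bulk RNA, so fewer cells with the fusion and fewer edits per cell cannot be told apart. Libraries listed 9892 to 11195 genes with an EPR above 0, called edited here. The median EPR of the 8046 genes edited in all 6 libraries ran from 0.00907 to 0.0161, and it was 0.0120, 0.0153 and 0.0161 with RPL10A-STAMP against 0.00907, 0.0129 and 0.0112 with RPL22-STAMP. All 8 neuronal markers checked were edited in all 6 libraries, among them *Map2*, *Snap25*, *Slc17a7* (excitatory neurons) and *Gad1* (inhibitory neurons). Of 5 markers each, 3 astrocyte and 1 oligodendrocyte marker were edited in all libraries, whereas 4 microglial markers and the oligodendrocyte markers *Mog* and *Mobp* were listed at 0 throughout. Summed EPR is not a measure of cell number. For the astrocyte markers it ranged from 0.131 to 0.194 with RPL10A-STAMP and from 0.0825 to 0.199 with RPL22-STAMP. *Aldh1l1* and *S100b* were at 0 in replicate 1 of both variants. The median EPR of the astrocyte markers was 0.0185 to 0.0381 over the libraries, against 0.0143 to 0.0183 for the neuronal markers. The part of astrocytes in the values of the receptor genes was not tested. The labels call the libraries replicates without naming separate cultures, and the study's text calls them biological in one place and technical in another, so p-values measure the spread between these libraries, whichever it is.

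*Grin1*, *Grin2a* and *Grin2b*, the subunits of the main cortical receptors, were edited in all 6 libraries. *Grin2d* and *Grin3a* were each edited in 5 and listed at 0 in 1. The remaining family members, *Grin2c* (the cerebellar GluN2C) and *Grin3b* (GluN3B, known from motor neurons), were listed at 0 in all 6. With RPL10A-STAMP, *Grin2a* and *Grin2b* had mean EPRs 1.52 and 1.77 times those with RPL22-STAMP, *Grin1* had overlapping values, and *Grin2d* ran the other way. As deposited, 3 of the 5 genes had no overlap between the variants, where 29.6% of genes edited in 3 or more libraries were separated in either direction. After scaling to the median gene they did not overlap for 2 of the 5, *Grin2b* and *Grin2d*, against 31.5% of genes. On the scaled values, none of the 5 genes passed the threshold of the fits across genes (limma adjusted p under 0.05). For the 3 genes edited throughout, this was a fit in which 1149 of 8046 genes (14.3%) passed, and *Grin2d* and *Grin3a* needed a looser filter.

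*Grin1*, the subunit shared by all NMDA receptors, had EPRs of 0.00746, 0.00722 and 0.00696 in the RPL10A-STAMP libraries and of 0.00635, 0.0125 and 0.00634 in the RPL22-STAMP libraries. The 3 RPL10A-STAMP libraries were tight, and RPL22-STAMP replicate 2 stood above all others while its 2 companions lay below every RPL10A-STAMP library. The means were 0.00721 ± 0.000251 and 0.00840 ± 0.00355 (SD, n = 3 each; two-sided exact permutation test, p = 1). Without RPL22-STAMP replicate 2 the difference of the means, RPL10A-STAMP minus RPL22-STAMP, turned from -0.00118 to 0.000867. *Grin1* lay below the median gene in every library, at 0.431 to 0.969 times its EPR.

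*Grin2a*, which encodes the GluN2A subunit of mature synapses, had EPRs of 0.0147, 0.0214 and 0.0221 with RPL10A-STAMP and of 0.0112, 0.0132 and 0.0139 with RPL22-STAMP. Every RPL10A-STAMP library was above every RPL22-STAMP library. The means were 0.0194 ± 0.00405 and 0.0128 ± 0.00142 (SD, n = 3 each; two-sided exact permutation test, p = 0.1, the smallest that 3 against 3 libraries allow; 0.167 adjusted over the 5 genes). Such a separation in favour of RPL10A-STAMP was seen for 28.2% of genes edited in all libraries. After scaling to the median gene, the *Grin2a* libraries of the variants overlapped, and in every library the gene stood at 1.02 to 1.40 times the median gene.

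*Grin2b*, which encodes GluN2B, the GluN2 subunit that binds CaMKII most tightly, had EPRs of 0.0133, 0.0163 and 0.0166 with RPL10A-STAMP and of 0.00844, 0.00912 and 0.00859 with RPL22-STAMP. Here too the groups did not overlap, and the RPL22-STAMP libraries lay within a narrow band. The means were 0.0154 ± 0.00181 and 0.00872 ± 0.000356 (SD, n = 3 each; two-sided exact permutation test, p = 0.1). *Grin2b* was the only gene of the 3 edited throughout whose groups stayed apart after scaling, with 1.03 to 1.11 times the median gene in RPL10A-STAMP libraries and 0.707 to 0.930 times in RPL22-STAMP libraries. A separation in this direction on the scaled values was seen for 20% of genes, and the ratio of the scaled means was 1.33.

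*Grin2d*, which encodes the slowly deactivating GluN2D, had EPRs of 0.0155, 0 and 0.00889 with RPL10A-STAMP and of 0.0188, 0.0323 and 0.0165 with RPL22-STAMP. All RPL22-STAMP libraries were above all RPL10A-STAMP libraries, the reverse of *Grin2a* and *Grin2b* (two-sided exact permutation test of the means, p = 0.1). In this direction 5.79% of the 10909 genes with editing in 3 or more libraries were separated as deposited, and 14.4% after scaling. The RPL22-STAMP values were 1.47 to 2.5 times the median gene of their library, whereas RPL10A-STAMP replicate 2 was listed at 0 and replicate 3 was at 0.551. Both *Grin2d* and *Grin3a* stand on the study's list of genes whose RNA level differed between neurons with and without doxycycline. The list is of RNA and not of EPR, and its genes were removed from the study's later bulk comparisons. Doxycycline also induces the fusion, so the drug and the fusion cannot be told apart in that list. Whether that RNA difference had a part in the values here was not tested.

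*Grin3a*, which encodes the glycine-binding GluN3A, had EPRs of 0.00260, 0.00797 and 0.00471 with RPL10A-STAMP and of 0, 0.00547 and 0.0166 with RPL22-STAMP. The RPL22-STAMP libraries held both the lowest and the highest value, so the groups overlapped (two-sided exact permutation test, p = 0.8). In 4 of the 5 libraries where it was edited, *Grin3a* lay at 0.218 to 0.522 times the median gene, and in RPL22-STAMP replicate 3 it reached 1.48 times. The plot of EPR by library sets these values beside each library's median gene.

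**Figure D1:**
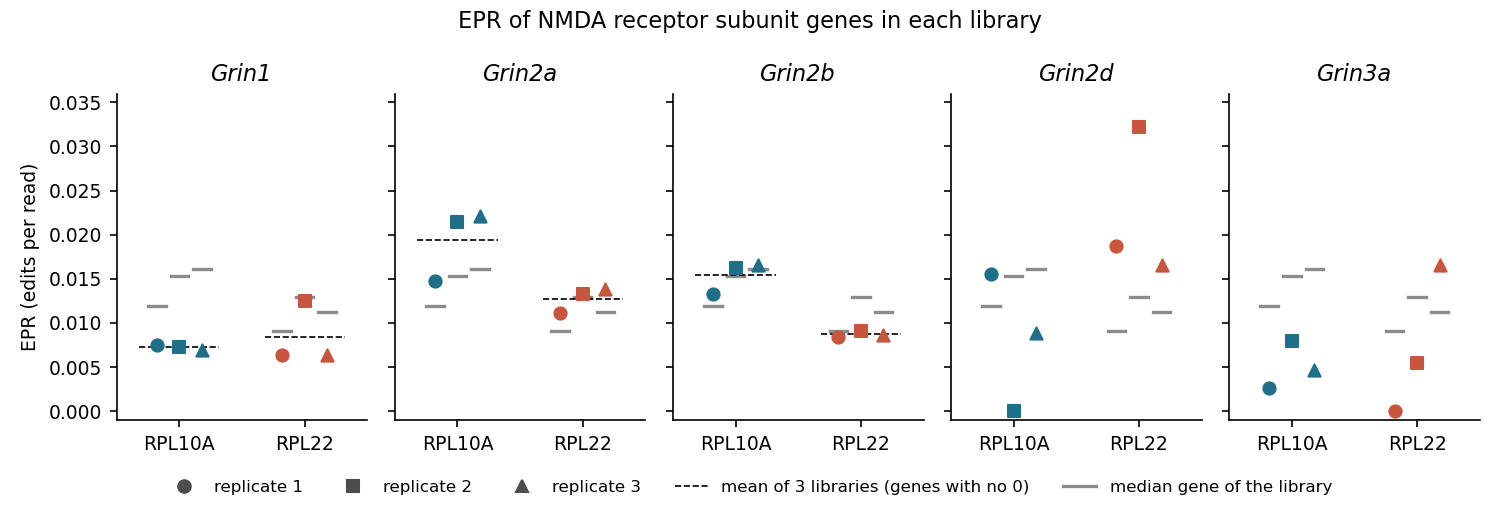
EPR (edits per read, vertical axis) of the 5 NMDA receptor subunit genes in the 3 RPL10A-STAMP (blue) and 3 RPL22-STAMP (red) libraries; symbols mark replicates, short grey lines the EPR of that library's median gene and dashed lines the group mean, drawn only for genes with no value of 0. *Grin2a* and *Grin2b* are higher in every RPL10A-STAMP library, *Grin2d* is higher in every RPL22-STAMP library, and *Grin1* and *Grin3a* overlap.

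The variants were next compared in a limma fit over all genes edited in every library. Libraries were scaled to their median gene before log2(EPR + 0.01) was taken, so a fold change is relative to the typical gene and, where EPR is low, smaller than the true change. *Grin1* had a log2 fold change, RPL10A-STAMP minus RPL22-STAMP, of -0.23 (SE 0.14, 95% interval -0.57 to 0.10, limma adjusted p = 0.312). It was 0.12 for *Grin2a* (SE 0.13, interval -0.18 to 0.42, limma adjusted p = 0.557) and 0.23 for *Grin2b* (SE 0.12, interval -0.07 to 0.52, limma adjusted p = 0.266). These intervals leave room for differences in either direction. With no pseudocount the values were -0.53 for *Grin1*, 0.20 for *Grin2a* and 0.43 for *Grin2b*, and none passed. Without RPL22-STAMP replicate 2 the values were -0.13 for *Grin1* and 0.07 for *Grin2a*.

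*Grin2d* and *Grin3a* could be fitted only with a looser filter, editing in 3 or more libraries, under which 6.91% of 10909 genes passed. *Grin2d* had a log2 fold change of -1.08 (SE 0.37, interval -1.99 to -0.18), which did not pass (limma adjusted p = 0.142). Its unadjusted limma p was 0.0261, and 24.6% of the genes in that fit had an unadjusted p under 0.05. Without RPL10A-STAMP replicate 2, the library listed at 0, it was -0.71, and with a pseudocount of 0.001, which moves that library most, it was -2.32 (SE 1.04). *Grin3a* had -0.20 (SE 0.39, interval -1.15 to 0.75, limma adjusted p = 0.802).

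Set beside the other ionotropic glutamate receptors, the NMDA receptor genes edited throughout had a median log2 fold change of 0.12, and 0 of 3 passed. For the AMPA and the kainate receptor genes edited throughout the medians were 0.42 and -0.09. Over all tested genes the median was -0.01 and 14.3% passed. Of the 4 AMPA receptor genes, the channels of fast excitatory transmission, 2 passed with RPL10A-STAMP higher, *Gria2* at 0.73 (SE 0.14, limma adjusted p = 0.0172) and *Gria3* at 0.72 (SE 0.13, limma adjusted p = 0.0153). *Gria1* had -0.23 and *Gria4* 0.11, close to the values of *Grin1* and *Grin2a*. Of the 4 kainate receptor genes edited throughout, only *Grik2* passed, at 0.82 (SE 0.13, limma adjusted p = 0.0105). These 5 AMPA and kainate receptor genes were named after their values were seen, and whether the receptor families differ was not tested. *Gria2*, *Gria3* and *Grik2* had transcript GC contents of 36.8%, 43.0% and 37.9%, and with the trend with GC content removed their log2 fold changes were 0.24, 0.46 and 0.37, none of which passed. Over 15 alternatives *Gria2* passed in 7, *Gria3* in 9 and *Grik2* in 12.

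**Figure D2:**
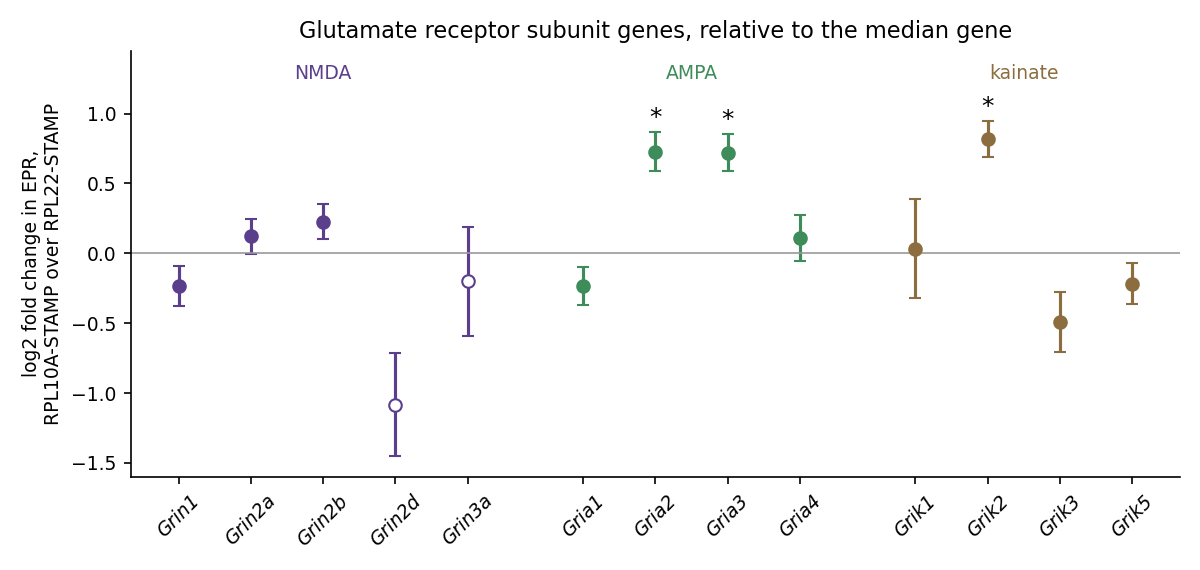
Log2 fold change in EPR, RPL10A-STAMP over RPL22-STAMP, relative to the median gene (vertical axis), for NMDA, AMPA and kainate receptor subunit genes; bars are 1 standard error, stars mark limma adjusted p under 0.05, and open circles are genes fitted among those edited in at least 3 libraries. The NMDA receptor genes edited throughout lie between -0.23 and 0.23. *Gria2*, *Gria3* and *Grik2* lie at 0.72 to 0.82, and the other AMPA and kainate receptor genes shown lie between -0.49 and 0.11.

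Differences between genes of the same library were taken without scaling of libraries. They still depend on the level of the library, since the pseudocount of 0.01 shrinks them more where EPRs are low. They are of EPR alone and were not corrected for the cytidine shares given above. By the median over the 6 libraries the order of EPR was *Grin2d* (0.0160), *Grin2a* (0.0143), *Grin2b* (0.0112), *Grin1* (0.00709) and *Grin3a* (0.00509). By the mean, *Grin2a* (0.0161) was above *Grin2d* (0.0153). It was also the higher of the pair in the tested log2(EPR + 0.01) difference, by a mean of 0.15. *Grin2a* was above *Grin1* in 6 of 6 libraries, by 0.05 to 0.92 on the log2(EPR + 0.01) scale (two-sided exact sign-flip permutation test, p = 0.0313, the smallest that 6 libraries allow, 0.156 adjusted over 10 pairs). *Grin2a* was also above *Grin2b* in 6 of 6 libraries, by a narrower 0.24 ± 0.09 (SD, n = 6; exact sign-flip permutation test, p = 0.0313, adjusted p = 0.156). *Grin2b* was above *Grin1* in 5 of 6 libraries (exact sign-flip permutation test, p = 0.125). No pair passed after adjustment, and of the neighbours in the order *Grin2d* and *Grin2a* (exact p = 0.75) and *Grin1* and *Grin3a* (exact p = 0.438) did not differ beyond their spread.

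The rank within a library varied for *Grin2d* and *Grin3a*, the genes with a 0. With RPL22-STAMP, *Grin2d* had the highest EPR of the 5 genes in replicates 1 and 2 and the second highest in replicate 3. With RPL10A-STAMP it was first in replicate 1, the last in replicate 2 and the third in replicate 3. *Grin2a* was never below the third place, and *Grin1* was never above it.

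The EPR of each gene was also taken relative to that of *Grin1* in the same library, which compares editing per read and not amounts of RNA or protein. On the log2(EPR + 0.01) scale the RPL10A-STAMP libraries gave 0.42, 0.61 and 0.65 for *Grin2b*, and the RPL22-STAMP libraries gave 0.17, -0.24 and 0.19. The groups did not overlap, with means of 0.56 ± 0.12 and 0.04 ± 0.24 (SD, n = 3 each; two-sided exact permutation test, p = 0.1, 0.2 adjusted over 4 genes). The pseudocount shrinks such ratios more in libraries with lower EPRs. The difference between the variants for *Grin2b* was 0.52 with it and 0.96 without it. With the GC trend removed, the fitted log2 fold change between the variants was 0.08 for *Grin2b* and 0.13 for *Grin1*, so *Grin2b* was then not the higher of the 2. For *Grin2a* the RPL10A-STAMP libraries gave 0.50, 0.87 and 0.92 and the RPL22-STAMP libraries 0.37, 0.05 and 0.55, and the highest RPL22-STAMP library was above the lowest RPL10A-STAMP library (exact permutation p = 0.2).

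For *Grin2d* the RPL10A-STAMP libraries gave ratios of 0.55, -0.78 and 0.16 and the RPL22-STAMP libraries 0.81, 0.91 and 0.70 (exact permutation p = 0.1), so the RPL22-STAMP libraries were the higher ones. For *Grin3a* it ran from -0.47 to 0.06 with RPL10A-STAMP and from -0.71 to 0.70 with RPL22-STAMP (exact permutation p = 1). Values of -0.78 for *Grin2d* and -0.71 for *Grin3a* belong to libraries listed at 0 and are set by the pseudocount.

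**Figure D3:**
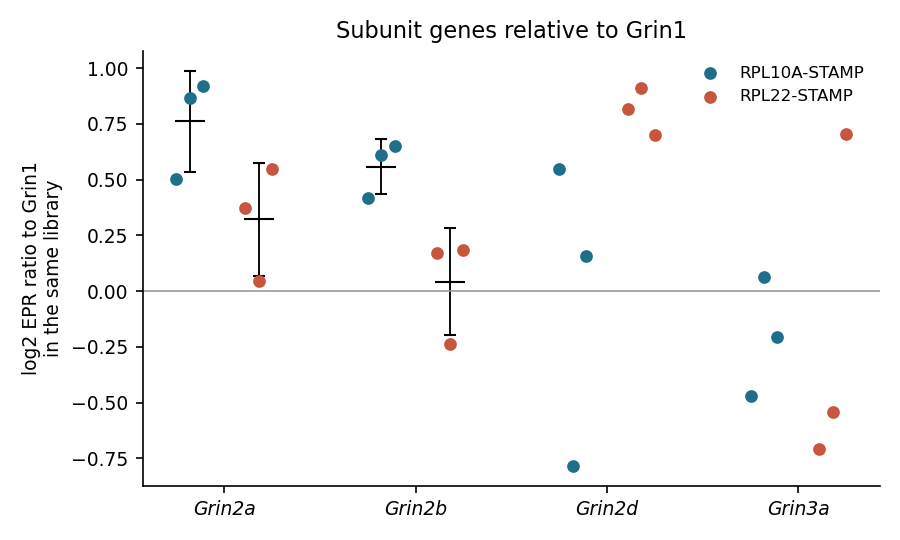
Log2 ratio of EPR + 0.01 of each gene to *Grin1* in the same library (vertical axis), with 1 point per library, RPL10A-STAMP in blue and RPL22-STAMP in red; black bars are mean ± SD (n = 3), drawn for the genes with no value of 0. *Grin2b* is higher against *Grin1* in all RPL10A-STAMP libraries and *Grin2d* in all RPL22-STAMP libraries, with no correction for GC content.

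Across genes, the fold change between the variants was lower at higher transcript GC content, with a median log2 value of 0.27 in the lowest of 4 GC classes of equal size and -0.25 in the highest. *Grin1* and *Grin2d* belong to the highest class, *Grin2a*, *Grin2b* and *Grin3a* to neither. When the trend with GC content was removed from each library, 663 genes passed. The log2 fold change of *Grin1* then went from -0.23 to 0.13, that of *Grin2a* from 0.12 to -0.06, that of *Grin2b* from 0.23 to 0.08 and that of *Grin2d* from -1.08 to -0.67. Removing the trend with transcript length turned *Grin2a* and *Grin2b*, the genes with the longest 3′ UTRs, to -0.14 each. None of these values passed, and the part of GC content and length in the differences as deposited was not tested.

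**Figure D4:**
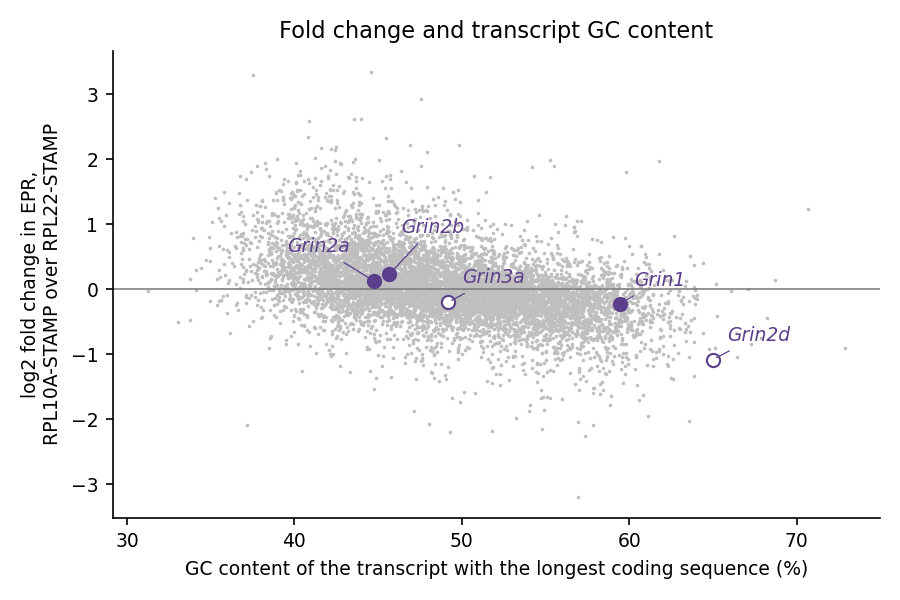
Log2 fold change in EPR, RPL10A-STAMP over RPL22-STAMP (vertical axis), against transcript GC content in percent (horizontal axis) for 8039 genes edited in all 6 libraries (grey), with the NMDA receptor genes in purple; open circles are *Grin2d* and *Grin3a*, fitted among genes edited in at least 3 libraries. The cloud slopes down, *Grin2a* and *Grin2b* (44.8% and 45.7% GC) lie left of its middle and above 0, and *Grin1* and *Grin2d* (59.4% and 65.0% GC) lie at its right end and below 0.

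Genes that work with the receptor were taken from 4 lists, of scaffolds and trafficking proteins, of kinases and phosphatases that act on the receptor or on its calcium signal, of downstream effectors and of co-agonist supply and modulators. Of their 61 genes, 60 were edited in all libraries and 15 of these passed (25%, against 14.3% of all tested genes). The lists were chosen with earlier results of these data known, so these shares are a description and not a test. Of the 60, 3 passed with RPL10A-STAMP higher, as did 8.51% of all tested genes. The other 12 passed with RPL22-STAMP higher, as did 5.77% of all tested genes. The median log2 fold change of the 60 was -0.07. Without scaling of the libraries, which moved the median of all genes from -0.01 to 0.18, 8 of the 60 passed, against 1085 of all 8046 genes. Of the 8, 5 were higher with RPL10A-STAMP and 3 with RPL22-STAMP. With the GC trend removed 7 passed, 1 and 6, against 663 of all 8039 genes. A replicate block left 7 (603 of all 8046 genes), the block together with the GC correction left 1 (227 of 8039), and the methods' t-test called 0 (0 of 8046). The count fell to 4 without RPL10A-STAMP replicate 2 (447 of all genes), 5 without replicate 3 (369) and 8 without replicate 1 (692). It fell to 8, 9 and 10 without RPL22-STAMP replicates 2, 3 and 1 (738, 595 and 865 of all genes).

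Among the 24 scaffold and trafficking genes 3 passed (12.5%, against 14.3% of all tested genes). *Homer1*, a scaffold that links Shank proteins to group I metabotropic receptors, was higher with RPL10A-STAMP by 1.09 (SE 0.16, limma adjusted p = 0.00688), from a mean EPR of 0.0538 ± 0.00485 against 0.0153 ± 0.00574 (SD, n = 3 each). *Lin7a*, part of the complex that carries GluN2B along dendrites, was higher by 0.72 (limma adjusted p = 0.0400). *Shank1*, a master scaffold of the postsynaptic density, went the other way at -1.19 (SE 0.15, limma adjusted p = 0.00507), from 0.0169 ± 0.00587 against 0.0404 ± 0.010. *Dlg4*, which encodes PSD-95, the scaffold that binds GluN2 tails, was named for its role after its value was seen, and with -0.15 it did not pass.

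Of the 17 kinase and phosphatase genes, 5 were higher with RPL22-STAMP and 1 with RPL10A-STAMP (35.3% in either direction, against 14.3% of all tested genes). *Ptpn5*, the striatal-enriched phosphatase STEP that dephosphorylates GluN2B, had -1.43 (SE 0.20, limma adjusted p = 0.00602), with a mean EPR of 0.0166 ± 0.00357 against 0.0504 ± 0.0158. *Prkca*, a protein kinase C, was the gene higher with RPL10A-STAMP, at 0.64 (SE 0.13, limma adjusted p = 0.0209). *Camk2a*, named after its values were seen because its product docks on GluN2B, had -0.79 (SE 0.13, limma adjusted p = 0.0127). The tyrosine kinases that phosphorylate GluN2 tails, *Src* at -0.31 and *Fyn* at -0.07, were likewise named after their values were seen and did not pass.

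Of the 14 downstream genes, 5 passed (35.7%, against 14.3% of all tested genes), all higher with RPL22-STAMP. *Mapk3*, the kinase ERK1, had -1.24 (SE 0.12, limma adjusted p = 0.00444), from 0.0120 ± 0.00104 against 0.0338 ± 0.00403. *Calm3*, a calmodulin gene, had -0.74 (limma adjusted p = 0.0156). Of the co-agonist and modulator genes, 5 of 6 could be tested and *Ephb2*, a receptor that binds GluN1, passed at -0.81 (limma adjusted p = 0.0324), while *Srr*, the enzyme that makes D-serine, named after its value was seen, had 0.22 and did not pass. With the GC trend removed, *Shank1* (-0.79), *Ptpn5* (-1.09) and *Mapk3* (-0.92) passed. *Homer1* (0.63, limma adjusted p = 0.0576), *Prkca* (0.53, 0.0517), *Camk2a* (-0.53, 0.0572), *Lin7a* (0.51, 0.132), *Ephb2* (-0.49, 0.157) and *Calm3* (-0.40, 0.107) did not, with the direction as before. Over 15 alternatives on the same genes, which included each library left out and the replicate block, *Mapk3* passed in 14, *Shank1* and *Ptpn5* in 13, *Homer1* in 12, *Camk2a* in 9, *Calm3* in 8, *Prkca* and *Ephb2* in 6 and *Lin7a* in 4, and the sign of each was the same in all 15.

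**Figure D5:**
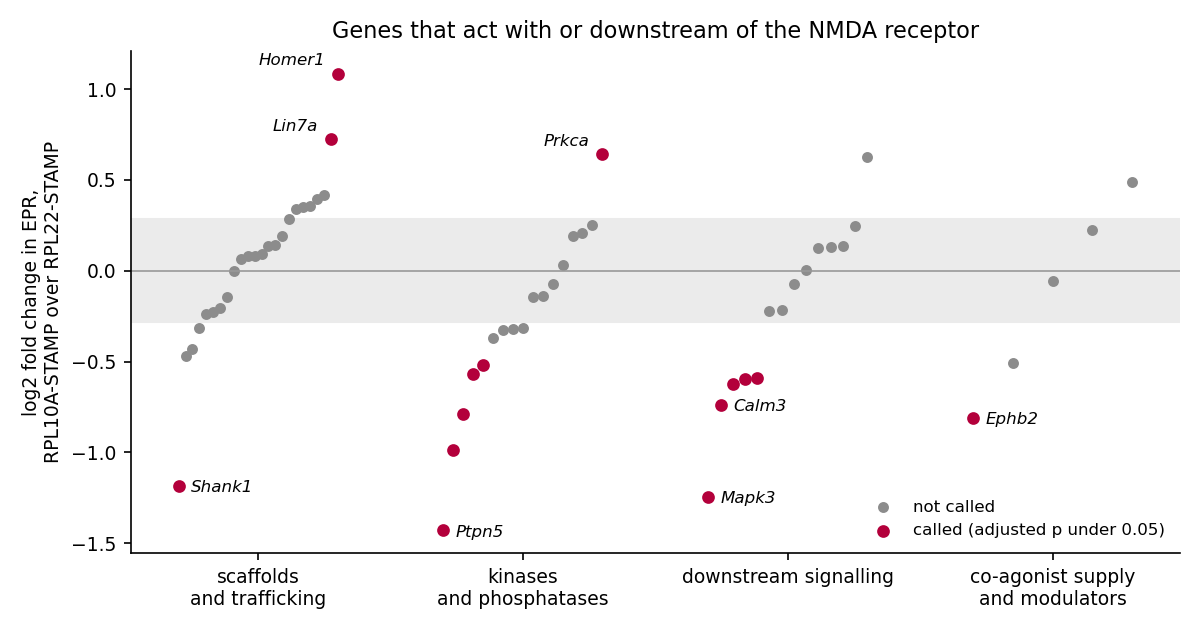
Log2 fold change in EPR, RPL10A-STAMP over RPL22-STAMP (vertical axis), of the genes in 4 lists that act with the NMDA receptor, ordered within each list; red points passed (limma adjusted p under 0.05), names mark called genes with the largest values, and the grey band holds the middle of all tested genes, from quartile -0.28 to quartile 0.29. The 3 red points above 0 are *Homer1*, *Lin7a* and *Prkca*, and the other 12 lie below 0.

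The tested genes whose scaled log2(EPR + 0.01) values lay closest to each subunit over the 6 libraries are given as a description of the profiles. Nearest to *Grin1* was *Trib2* (root mean square difference 0.07), followed by *Arl8a* and *Kat7*. Nearest to *Grin2a* was *Fyttd1* (0.05), then *Wasl* and *Tnr*, and nearest to *Grin2b* was *Cyb5r3* (0.04), then *Cdv3* and *Ddx5*. *Grin2d* and *Grin3a*, each with a value of 0, were compared only with genes edited in all 6 libraries. No gene sharing their 0 could be drawn, so their larger differences say nothing about how unusual the profiles are. The smallest was 0.28 for *Grin2d*, to *Hap1*, ahead of *Ranbp10* and *Dut*. For *Grin3a* it was 0.19, to *Dusp1*, ahead of *Rsu1* and *Wbp11*.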

How the data were processed

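The 6 libraries, 3 per variant, were bulk RNA-seq. After adapter trimming (cutadapt) and alignment to mm10 (STAR, which kept reads with several locations), the authors took edits from SAILOR and read counts from featureCounts and deposited their ratio for every gene, with libraries not normalized to each other. The annotation used for counting is not given in the sources used here. Of 31053 gene identifiers, 31011 were named through GENCODE mouse release 21.

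Members and gene lists were chosen with earlier results of these data known. Every library was scaled so that the median of the 8046 genes with EPR above 0 throughout was equal. The model for log2(EPR + 0.01) was limma's (version 3.58.1, R 4.3.3) with its variance trend, and p values were adjusted over all tested genes (Benjamini-Hochberg, threshold 0.05). Single genes were compared by exact permutation over 20 labelings, and pairs of genes by 64 sign flips of within-library differences. Trends with GC content or length were natural splines with 4 degrees of freedom. Sequences and gene models came from GRCm38.

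Named genes were the NMDA receptor family, the 2 called genes with the largest fold change in each direction from each pathway list and the 3 genes closest to each member. Others are marked, and 1 gene of the rule and some sequences are not reported here. Alternatives covered the pseudocount, scaling, filter, replicate block, GC content, length, the methods' t-test and each library left out. Other steps used Python 3.11.15 with scipy 1.17.1 and pandas 2.3.3.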

Additional observations from a re-analysis of the deposited data

How the results depend on the processing

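No call on a subunit gene changed under any alternative run: none passed in the fit across genes. Against 1149 called genes, 603 were called with the replicate number as a block, 663 with the GC trend removed, 227 with both, 754 among genes edited in at least 3 libraries, 569 among those edited in at least 1, and 369 to 865 with each library left out in turn (369 without RPL10A-STAMP replicate 3, 447 without replicate 2, 692 without replicate 1, 595 without RPL22-STAMP replicate 3 and 738 without replicate 2). The methods' t-test on EPR as deposited called 0 of 8046 after adjustment, with 1996 at an unadjusted p under 0.05. Of the called genes, 59.6% were higher with RPL10A-STAMP, and 88.1% were without scaling (956 against 129). The replicate numbers did not pair the samples (correlations of deviations for equal numbers -0.00546 to 0.0464), and the block changed no call on a subunit gene. With a library left out, the log2 fold change ranged from -0.32 to -0.13 for *Grin1*, 0.07 to 0.16 for *Grin2a*, 0.18 to 0.29 for *Grin2b* and -1.42 to -0.71 for *Grin2d*. Log2 fold changes turned to 0.13 for *Grin1* and -0.0621 for *Grin2a* with the GC trend removed, with or without the replicate block, to -0.14 for *Grin2a* and *Grin2b* with the length trend removed, and for *Grin3a* to 0.0282 with a pseudocount of 0.001 and within a range of -0.58 to 0.21 with a library left out (0.21 without RPL22-STAMP replicate 3). EPR differences of means ranged from -0.00221 to 0.000867 for *Grin1* (0.000867 without RPL22-STAMP replicate 2) and from -0.00595 to 0.00236 for *Grin3a* (0.00236 without RPL22-STAMP replicate 3) with a library left out. The difference between variants of *Grin3a* relative to *Grin1* turned to 0.36 with a pseudocount of 0.001 and ranged from -0.29 to 0.42 with a library left out. Of the pairs, *Grin2a* over *Grin2d* ranged from -0.15 to 0.35 and *Grin2b* over *Grin2d* from -0.39 to 0.12 with a library left out, and the latter was 0.18 with a pseudocount of 0.001. With no pseudocount only the 3 genes without a 0 could be compared, and 2 pairs passed (*Grin2a* over *Grin1* and over *Grin2b*, exact sign-flip permutation test, adjusted p = 0.0469 over 3 pairs). With the pseudocount both pairs already had the smallest unadjusted p that 6 libraries allow (exact sign-flip permutation test, p = 0.0313). They passed because adjustment was over 3 pairs and not 10. *Grin2d* and *Grin3a* could not be fitted without a pseudocount. The cause of the other changes was not tested. No reads per gene were available, so counting error could not be given, and it is unknown whether the values of 0 stand for few reads.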
